A study of Homo sapiens with 6 samples.

Results

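The open chromatin regions at the ends of stand-alone long noncoding RNA (lncRNA) genes were described here. Peaks of 6 libraries that overlapped by 1 bp or more were merged into 69562 union regions. A region was kept where its centre lay within 1 kb of an end of a RefSeq lncRNA gene, more than 5 kb from every protein-coding gene end and outside every protein-coding gene. This rule kept 1535 regions, 2.21% of all, and their nearest ends belonged to 1395 of the 18303 lncRNA genes in the gene table. The series measured open chromatin by ATAC-seq, in which a transposase cuts and tags accessible DNA, in isolated Jurkat nuclei. Jurkat is a cultured human line derived from a T cell acute lymphoblastic leukaemia. The normal gravity group (NG) had 3 libraries and the simulated microgravity group (SMG) had 3. In every library nuclei of 50000 cells were released by 3 min of detergent lysis and transposed for 30 min at 37 °C. For the SMG group the labels describe nuclei placed for 30 min at 37 °C in a random positioning machine, which rotates a sample at 30° per second so that the direction of gravity averages out. Nuclei and not intact cells were rotated, and the labels do not say whether rotation and transposition ran together. All libraries came from 1 cell line, and the labels do not say that they came from separate cultures, so each p-value below reflects how far these libraries vary, and that variation may be technical.

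LncRNAs are transcripts longer than the small RNAs and are not known to be translated. Many are made by RNA polymerase II from promoters of their own, some are hosts from which microRNAs or small nucleolar RNAs are cut, and others have been studied as regulators of chromatin or of neighbouring genes. Many annotated lncRNA ends lie beside or inside protein-coding genes, where an open region cannot be assigned to either gene. The distance rule leaves the ends where no protein-coding promoter is close. The median distance of the 1535 regions to the nearest protein-coding gene end was 39.6 kb, and 440 regions (28.7%) lay more than 100 kb away. By symbol, 942 regions (61.4%) were nearest to uncharacterised LOC-numbered genes, 360 to LINC-numbered genes, 57 to antisense genes, 29 to microRNA hosts and 7 to small nucleolar RNA hosts. The gene table gives gene spans and not exons. By these spans 924 centres (60.2%) lay inside a lncRNA gene and 611 just outside.

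The promoter windows of 8 lncRNA genes show the range of regions described below. Each window runs from 250 bases before to 50 bases after a start annotated by RefSeq on GRCh38.p14, and each holds the summit of its region. Capitals mark searched motif letters on either strand. Factors of the ETS family are searched by CCGGAAG, and AP-1 dimers of the FOS and JUN families by TGANTCA. The cyclic AMP response element (CRE) is searched by TGACGTCA. The NF-Y complex is searched by the letters CCAAT, and the SP and KLF zinc finger proteins by GGGCGG. The E-box searched is CAGCTG, and the core of CTCF is searched by name. RUNX, NRF1, GATA, YY1 and TATA letters were also searched and none of the 8 windows holds a match. Overlapping matches are capitalised as 1 run and each match counts for its own motif. The first 3 belong to GC-rich starts open in all 6 libraries with scores near the top of each peak list: LOC112267988 (chr7:143836513-143836812, plus strand), DANCR (chr4:52712144-52712443, plus strand) and LINC01003 (chr7:152463874-152464173, plus strand).
LOC112267988: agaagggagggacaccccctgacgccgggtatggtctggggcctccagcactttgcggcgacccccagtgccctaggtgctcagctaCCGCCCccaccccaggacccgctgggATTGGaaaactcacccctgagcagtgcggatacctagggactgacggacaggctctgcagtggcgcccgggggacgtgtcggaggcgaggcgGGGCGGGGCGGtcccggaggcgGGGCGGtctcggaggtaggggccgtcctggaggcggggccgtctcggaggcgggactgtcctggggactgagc
DANCR: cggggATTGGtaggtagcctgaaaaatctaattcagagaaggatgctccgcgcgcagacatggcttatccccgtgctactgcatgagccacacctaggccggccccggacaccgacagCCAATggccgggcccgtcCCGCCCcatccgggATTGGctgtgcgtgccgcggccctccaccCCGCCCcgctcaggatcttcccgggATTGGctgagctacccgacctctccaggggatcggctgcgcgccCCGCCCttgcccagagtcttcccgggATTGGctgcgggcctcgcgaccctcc
LINC01003: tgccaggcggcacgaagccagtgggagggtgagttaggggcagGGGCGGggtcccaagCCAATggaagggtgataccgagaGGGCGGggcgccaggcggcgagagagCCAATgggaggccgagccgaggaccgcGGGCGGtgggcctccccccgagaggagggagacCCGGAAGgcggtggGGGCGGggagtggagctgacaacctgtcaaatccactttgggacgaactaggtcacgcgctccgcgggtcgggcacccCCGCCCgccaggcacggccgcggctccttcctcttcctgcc
The next 3 belong to starts of T cell interest, also open in all 6 libraries: LOC105370399 beyond the T cell receptor alpha constant gene (chr14:22556316-22556615, plus strand), LINC01215 (chr3:108125571-108125870, plus strand) and MIR181A1HG (chr1:198937380-198937679, minus strand).
LOC105370399: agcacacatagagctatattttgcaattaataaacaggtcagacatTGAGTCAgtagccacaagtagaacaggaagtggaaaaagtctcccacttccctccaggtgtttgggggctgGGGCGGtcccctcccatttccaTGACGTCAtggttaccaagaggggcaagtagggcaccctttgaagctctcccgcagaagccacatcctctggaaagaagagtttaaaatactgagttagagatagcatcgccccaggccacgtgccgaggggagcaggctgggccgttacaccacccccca
LINC01215: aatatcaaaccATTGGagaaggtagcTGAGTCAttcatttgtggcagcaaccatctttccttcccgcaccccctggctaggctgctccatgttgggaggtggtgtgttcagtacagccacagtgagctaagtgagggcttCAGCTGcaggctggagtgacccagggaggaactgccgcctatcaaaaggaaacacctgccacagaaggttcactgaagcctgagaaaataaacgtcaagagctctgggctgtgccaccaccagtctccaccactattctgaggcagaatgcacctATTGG
MIR181A1HG: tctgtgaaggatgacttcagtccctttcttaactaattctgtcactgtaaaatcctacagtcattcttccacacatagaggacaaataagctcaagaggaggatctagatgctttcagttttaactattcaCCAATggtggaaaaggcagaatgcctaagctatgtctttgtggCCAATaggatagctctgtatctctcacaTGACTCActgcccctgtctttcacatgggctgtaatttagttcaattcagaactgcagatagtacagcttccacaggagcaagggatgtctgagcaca
The last pair contrasts a start with peaks in the 3 NG libraries and no SMG library, LINC02913 (chr9:129320766-129321065, plus strand), with a start whose peak was found in 1 library, LINC01571 (chr16:51762269-51762568, plus strand).
LINC02913: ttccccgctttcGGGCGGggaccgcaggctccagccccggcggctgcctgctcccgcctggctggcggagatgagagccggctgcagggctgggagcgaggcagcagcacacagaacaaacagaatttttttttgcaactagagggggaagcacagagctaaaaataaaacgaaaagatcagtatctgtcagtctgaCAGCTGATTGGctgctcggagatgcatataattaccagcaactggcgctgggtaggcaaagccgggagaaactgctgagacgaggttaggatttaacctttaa
LINC01571: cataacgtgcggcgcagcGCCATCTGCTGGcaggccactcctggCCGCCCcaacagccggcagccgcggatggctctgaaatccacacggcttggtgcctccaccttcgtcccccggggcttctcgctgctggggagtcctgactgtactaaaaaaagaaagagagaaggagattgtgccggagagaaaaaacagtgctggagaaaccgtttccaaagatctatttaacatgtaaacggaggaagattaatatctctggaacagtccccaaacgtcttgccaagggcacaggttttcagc

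The windows of LOC112267988, DANCR and LINC01003 were 71.7%, 67.7% and 71.7% G or C. DANCR held 5 CCAAT and 3 GGGCGG matches, and LINC01003 held 2 CCAAT, 5 GGGCGG and 1 CCGGAAG match. The LOC105370399 and LINC01215 windows were both 52.7% G or C and the MIR181A1HG window 42.3%, with no CpG dinucleotide. Each of these T cell windows held 1 AP-1 match, and LOC105370399 also held 1 CRE match. The windows are picked examples. AP-1 letters were in 13.4% of windows held by 6 libraries, 13.1% at 3 to 5 and 10.3% at 1 or 2. In stand-alone starts with no peak they were in 12.1%. LINC01571 held 1 CTCF match. A match is a description of the letters and not a bound site.

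The peak lists held 37782 to 43713 peaks a library. T cell marker genes had a gene-end peak in every library (10 of 10 genes, among them CD3E and LCK). Of the markers of other cell types, 1 of 6 B cell genes (BLK) had a gene-end peak in each library, 0 of 6 myeloid and 0 of 4 epithelial genes did in any, and 0 to 2 of 4 erythroid genes did. NG 1 was the shallowest library: its lowest background pileup was 1.17 reads against 1.42 to 1.77 in the other libraries. A region with no peak in a library is one that did not pass the authors' peak calling there, which does not show closed chromatin.

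The regions fell mainly into those called in every library and those called in 1. All 6 libraries held 630 regions (41.0%), 5 held 114, 4 held 99, 3 held 96, 2 held 146, and 450 (29.3%) were held by 1 library. Regions at protein-coding ends away from lncRNA ends (n = 8744) were held by all 6 libraries in 66.0% of cases, and distal regions far from both kinds of gene end (n = 18695) in 22.8%. Of all union regions, 34.6% were held by all 6 libraries and 34.9% by 1, so these edges were also the largest there. At 2, 3, 4 and 5 libraries the shares of all union regions were 10.1%, 6.93%, 6.14% and 7.21%. Score rose with the number of libraries. The median score percentile, the rank of a region's best peak by −log10 q within its own library from 0 (lowest) to 100 (highest), was 13.7 for regions held by 1 library, 19.5 for 2, 23.9 for 3, 27.3 for 4, 37.1 for 5 and 69.4 for 6. Region width went the same way, from a median of 240.5 bp at 1 library to 900.5 bp at 6. Over all union regions it went from 229 to 867 bp. A merged region spans the peaks of all libraries that hold it, so its width grows in part by the merging. The median summit pileup went from 11 to 28.5 reads. For all union regions the pileup went from 10 to 28.5 reads and the median percentile from 12.9 to 68.4. A region held by few libraries was therefore mostly also a low-scoring one in these lists.

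**Figure D1:**
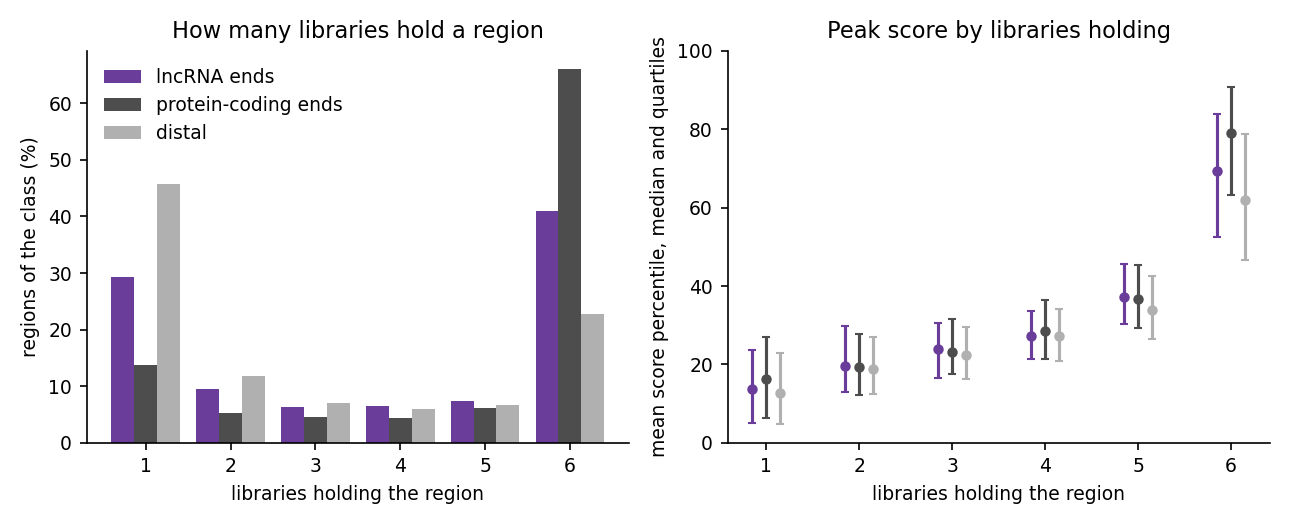
Left, the share of regions of each class (vertical axis, %) by the number of libraries holding them (horizontal axis), for regions at stand-alone lncRNA ends, at protein-coding ends and distal regions. Right, the mean score percentile of the same regions, with points at the median and bars from the lower to the upper quartile. The lncRNA ends peak at both edges, with 29.3% held by 1 library and 41.0% by 6. The share held by 6 lies between the protein-coding ends (66.0%) and the distal regions (22.8%). All union regions, not plotted, had 34.9% at 1 library and 34.6% at 6.

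Which library missed a region was uneven. Of the 114 regions held by exactly 5 libraries, 59 (51.8%) were missing only in NG 1, 21 only in SMG 3, 16 only in SMG 1, 11 only in NG 3, 4 only in NG 2 and 3 only in SMG 2. Over all union regions held by 5 libraries, NG 1 was the missing library in 42.6%. Single-library regions were spread more evenly, from 52 in NG 3 to 97 in SMG 1. The highest-scoring of the regions held by 5 lay at LINC01260 (chr20:44671613-44672622), with percentiles of 61.2 and 66.5 in NG 2 and NG 3 and 80.9, 79.4 and 67.6 in SMG 1 to 3, and at LOC105370765 (chr15:35115063-35115806), with 59.1 and 76.9 in NG 2 and NG 3 and 76.8, 74.8 and 61.2 in SMG 1 to 3. Both were missing in NG 1 alone. Among regions held by 4, the top ones lay at FAM230J and at the far end of LINC00974. At 3 libraries they lay at MIR155HG and LINC01152, at 2 at LINC01596 and LOC124904993, and at 1 at LINC01571 (percentile 60.6, NG 1) and LINC00921 (percentile 59.3, SMG 3).

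Within each library, regions at lncRNA ends scored between the comparison classes. The median percentile of the held lncRNA-end regions was 54.3 to 56.2 over the 6 libraries and that of protein-coding ends 73.4 to 75.6. Distal regions began at 37.4 in NG 1, with a middle value of 38.8 over the libraries. The difference to protein-coding ends was −18.7 ± 1.19 percentile points (SD, n = 6; exact sign-flip permutation test, two-sided p = 0.031, the smallest it can give), lower in 6 of 6 libraries. The difference to distal regions was 16.9 ± 1.15 points (SD, n = 6; same exact test, p = 0.031), higher in 6 of 6 libraries.

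The annotated start of a lncRNA gene was open more often than its far end. Among all stand-alone ends in the gene table (21000 ends of 11731 genes), 5935 starts and 6604 far ends could be oriented from RefSeq starts. Starts had an open region within 1 kb in 8.92 ± 0.467% of cases per library (SD, n = 6) and far ends in 2.65 ± 0.211%, a ratio of 3.37. The difference was 6.27 ± 0.310 percentage points (SD, n = 6; exact sign-flip permutation test, two-sided p = 0.031, the smallest it can give), positive in 6 of 6 libraries. Over the libraries together 12.5% of starts and 4.47% of far ends were open in at least 1, and 6.34% and 1.53% in all 6. The groups did not separate: starts were open in 8.82 ± 0.659% in NG and 9.03 ± 0.280% in SMG (SD, n = 3 each; exact permutation test, p = 0.9).

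**Figure D2:**
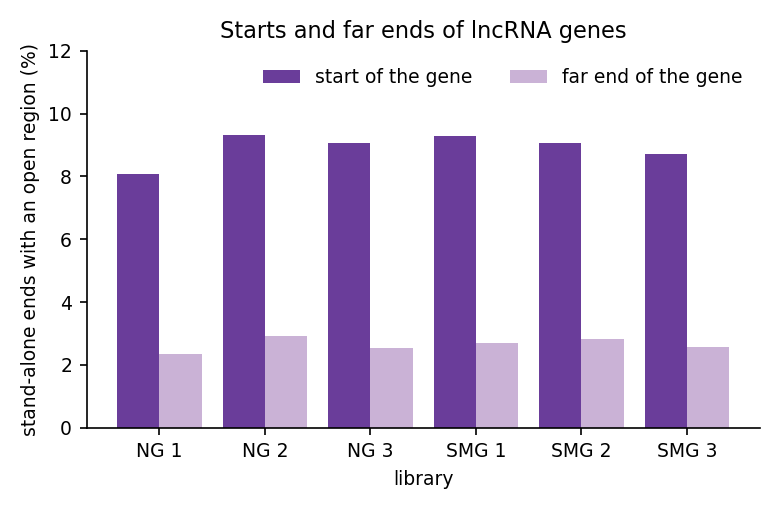
Percent of stand-alone lncRNA gene ends (vertical axis) with an open region within 1 kb in each library (horizontal axis), for annotated starts and for far ends. Every library shows more open starts (8.07% to 9.32%) than open far ends (2.35% to 2.94%).

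Seen from the regions, 694 lay near a start, 259 near a far end, 40 near both kinds and 542 near ends not oriented here. Of the start regions 45.7% were held by all 6 libraries, and of the far-end regions 30.5%. Start regions also scored higher in each library than far-end regions, by 13.6 ± 1.28 percentile points (SD, n = 6; exact sign-flip permutation test, p = 0.031), higher in 6 of 6 libraries. MALAT1, a nuclear RNA that is abundant in most cells, and DLEU1 carried regions at both ends, and the start had the higher percentile in every library for each gene. The MALAT1 start (chr11:65496775-65497956) had percentiles of 89.5, 91.4 and 91.2 in NG 1 to 3 and 92.8, 91.0 and 94.0 in SMG 1 to 3. Its far end (chr11:65506587-65507781) had 41.5, 58.7 and 22.3 in NG and 47.2, 38.7 and 23.8 in SMG. The 2 sets do not overlap, and the far end varied more between libraries. The DLEU1 start had 92.5, 86.4 and 92.1 in NG and 89.4, 87.5 and 96.5 in SMG. Its far end had 73.5, 36.1 and 21.0 in NG and 70.7, 61.9 and 52.4 in SMG. Both genes are picked examples, and the genes with regions at both ends were not counted. LOC124904486 went the other way, with mean percentiles of 4.48 at its start (1 library) and 28.7 at its far end (5 libraries).

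Regions centred nearer to the lncRNA end were more often held by all libraries. Of the regions, 649 (42.3%) had their centre within 250 bp of the lncRNA end, of which 50.2% were held by 6 libraries. Between 750 and 1000 bp the share was 29.8% of 235 regions. Just inside the 1 kb limit (900 to 1000 bp) 32.6% of 92 regions were held by all 6, and within the next 100 bp outside it 34.4% of 90. Just inside the limit to protein-coding ends (5 to 6 kb) the share was 43.9% of 41 regions, and just outside it (4 to 5 kb) 42.9% of 42. The single regions nearest each limit were LOC101927949 at 999.5 bp (held by 6, percentile 74.1) and, outside, LNCRNA-IUR at 1002.5 bp (held by 6, percentile 86.8). SNHG16 lay 5000.5 bp from a protein-coding end (held by 1, percentile 7.44) and LOC124901676, outside, 4967.5 bp (held by 6, percentile 67.9). Shares on both sides of each limit were close.

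Summit position was measured for the 514 regions matched to a RefSeq promoter window. At 1 library 71 regions were matched, while 172 lay near a start, so unmatched regions are left out. How close the summits lie may depend on this matching and on region width, and the values only describe the matched regions. For the 308 regions held by 6 libraries with a matched start the median summit lay at −32.5 bp from the nearest start, where negative is upstream, with quartiles of −113 and 92.0 bp, and 61.4% lay within 150 bp. For the 71 held by 1 library the median lay at −68 bp, with quartiles of −201.5 and 38 bp, and 60.6% lay within 150 bp. Before the start lay 69.0% of these summits at 1 library and 63.0% at 6 libraries. This difference was not tested, and the regions held by 1 library are narrower.

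**Figure D3:**
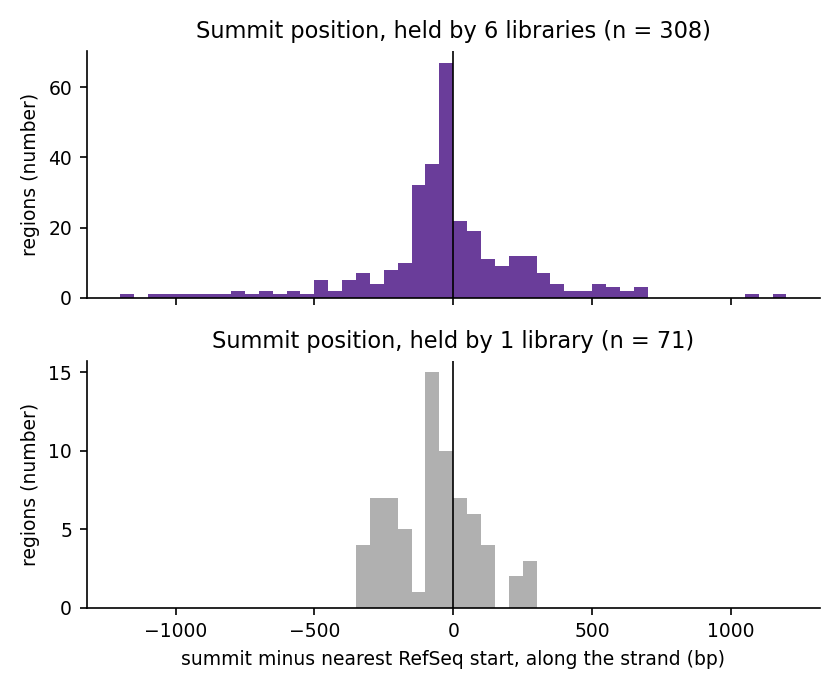
Number of regions (vertical axis) by the distance of the summit from the nearest RefSeq start along the strand (horizontal axis, bp, negative upstream), for regions held by 6 libraries (n = 308) and by 1 library (n = 71). Both distributions centre just upstream of the start, at medians of −32.5 and −68 bp, and the regions held by 6 extend further to both sides. Only regions matched to a promoter window are shown, and those held by 6 are wider.

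Base composition moved with the number of libraries, which the rule did not use. In the promoter windows of starts held by 6 libraries (366 windows) the median G or C content was 58.8% and the median ratio of observed to expected CpG 0.634. The values were 55.7% and 0.465 at 3 to 5 libraries (107 windows), 52.0% and 0.335 at 1 or 2 (117 windows), and 45.3% and 0.207 in 6130 windows of stand-alone lncRNA starts with no peak. The SP/KLF letters GGGCGG were present in 44.8%, 37.4%, 23.9% and 11.6% of these windows in the same order, and in 45.0% of all 35116 promoter windows of the table. The ETS letters CCGGAAG were present in 14.5%, 11.2%, 5.98% and 2.84%, and in 10.3% of all windows. Both motifs hold CpG or G and C letters, so they share base composition with the windows. The TATA letters TATAAA went the other way, in 8.47%, 6.54%, 12% and 20.2% (11.5% of all windows). CCAAT was in 33.1%, 33.6%, 18.8% and 37.7% (34.6% of all windows). The CTCF core was found in 2.19%, 5.61%, 5.98% and 0.326%, which are 8, 6, 7 and 20 windows, against 0.470% of all windows. These are descriptions of windows that differ in base composition, and no test was made.

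The strongest regions, like the regions as a whole, were mostly at LOC-numbered genes. The 12 with the highest mean percentile over the 6 libraries were at FAM230F, LOC102723696, LINC00563, LOC124903859, LOC105377308, LINC02021, LOC105369250, LOC112267988, LOC112268090, LINC02029, LOC124902154 and LOC124908062. Of these 12, 8 are LOC-numbered, a class that holds 61.4% of all 1535 regions, and 6 also lay within 1 kb of a pseudogene end. Their summit pileups ranged from 70 to 253 reads. FAM230F (chr22:18896143-18896725) had the highest mean, at a percentile of 99.9 in each library and with pileups of 186, 225 and 200 reads in NG 1 to 3 and 225, 253 and 162 in SMG 1 to 3. LOC102723696 (chr3:125915437-125916947) had 121, 194 and 166 reads in NG and 156, 199 and 165 in SMG. In both regions the groups overlap. Over all 1535 regions, 47 lay within 1 kb of a transcribed pseudogene end and 74.5% of these were held by all 6 libraries, and 34 lay near other pseudogenes, of which 41.2% were.

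FAM230F belongs to a repeated gene family on chromosome 22, and its copies differed in signal. Its promoter window is 92.9% identical over 268 aligned bases to that of FAM230G, and FAM230G and FAM230B are 99.3% identical over 299. The mean percentiles were 99.9 for FAM230F, 38.5 for FAM230G and 50.6 for FAM230B, and the median pileups 212.5, 14.5 and 16.5 reads. The FAM230F summit lay 433.5 bp downstream of its start, outside the window compared, and that of FAM230B 273.5 bp downstream, also outside it, while that of FAM230G lay at −36.5 bp. The identity thus describes the starts and not the bases under each summit. In all, 10 groups of 24 regions had promoter windows that share long runs of identical bases. LINC01719 and LOC105379574 on chromosome 1 are 97.0% identical over 230 bases, with mean percentiles of 95.2 and 39.7, and the LINC01719 summit too lay outside its window, at −489 bp. LOC124904989, LOC124904990, LOC124904991 and LOC124904992 on chromosome 21 have identical 300-base windows, and all 4 were held by 6 libraries with mean percentiles of 86.4, 87.0, 82.2 and 84.2. LOC101927830 and TMLHE-AS1 on the X chromosome are also identical over 300 bases, at mean percentiles of 41.5 and 43.4. Their summits lay 182 and 132 bp downstream of the starts, outside the windows compared. Those of LOC124904990 and LOC124904991, at 224 and 189 bp downstream, were outside too. The sources used here do not say how reads were placed between such copies, so the values of each copy are uncertain.

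LOC105370399 on chromosome 14 lies just beyond the T cell receptor alpha constant gene TRAC, which encodes the constant region of the alpha chain. The centre of its region (chr14:22555735-22557430) was 4.45 kb past the annotated end of TRAC, and the T cell receptor alpha enhancer is known to lie downstream of that gene. The region is also near an end of LINC02332. Percentiles were 97.9, 98.7 and 99 in NG 1 to 3 and 98.5, 97.6 and 96.1 in SMG 1 to 3, and pileups 91, 158 and 138 reads and then 128, 139 and 119 reads. The groups overlap in both measures. Its window, printed above, holds a CRE match, found in 1.85% of all promoter windows, and an AP-1 match, found in 7.71%. TRAC is listed as a constant-region gene and not as protein-coding, so it did not take part in the distance rule.

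A list of 34 lncRNAs of T cells and leukaemia had 25 genes with a stand-alone end. Of these, 14 (56.0%) had a region and 10 had one held by all 6 libraries. Over all 11731 lncRNA genes with a stand-alone end, 1468 (12.5%) had a region and 672 had one held by 6. Among 15 stand-alone genes of a list of abundant, widely expressed lncRNAs, 10 had a region and 6 one held by all libraries. Of 9 stand-alone lncRNAs of other tissues, among them HULC of liver and CARMN of smooth muscle, 0 had a region. The lists are short and were chosen with these data known, so the counts describe them and are not tested.

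Among the T cell and leukaemia genes LINC01215 scored highest, and the nearest protein-coding end to its region, that of CD47, is 34.3 kb away. Its start region (chr3:108124458-108126234) had percentiles of 97.3, 95.2 and 97.9 in NG and 98.4, 96.6 and 99.4 in SMG. MIR181A1HG is the host of miR-181a and miR-181b, microRNAs that tune T cell receptor sensitivity in thymocytes. Its start (chr1:198936908-198937778), 180 kb from an end of PTPRC, had 82.5, 92.0 and 90.8 in NG and 84.3, 87.8 and 78.9 in SMG. MIR17HG, the host of the miR-17-92 cluster, which is oncogenic in lymphoid cells, had 62.4, 70.7 and 65.5 in NG and 68.0, 74.4 and 67.0 in SMG at its start. The groups overlap for all 3 genes. LUNAR1, a NOTCH-regulated lncRNA of T cell leukaemia, had 18.9, 41.7 and 47.9 in NG and 60.2, 68.3 and 36.0 in SMG, a wide spread in both groups. DLEU2, the host of miR-15a and miR-16-1, had 54.4, 64.5 and 59.4 in NG and 63.4, 71.2 and 66.6 in SMG, where the lowest SMG value lies below the highest NG value. LINC01550, LINC01934, LINC02273 and MIR4435-2HG were also open in all libraries, with mean percentiles of 79.8, 73.6, 56.7 and 37.5. MIR155HG, the host of miR-155, which is induced in activated lymphocytes, was held by NG 2, NG 3 and SMG 2 alone, at 56.1, 43.4 and 46.2. MIR3142HG, host of miR-146a, was held by NG 1, NG 3 and SMG 2, and CYTOR by NG 2 and the 3 SMG libraries. The nearest end to the CYTOR region belongs to NCAL1, the name plotted for it. The list's other gene with a region had peaks in 1 library at a time. IFNG-AS1, LINC00861, LEF1-AS1 and 8 further genes of the list had a stand-alone end and no region. A missing region at these genes means no called peak within 1 kb of the ends that met the distance rule.

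**Figure D4:**
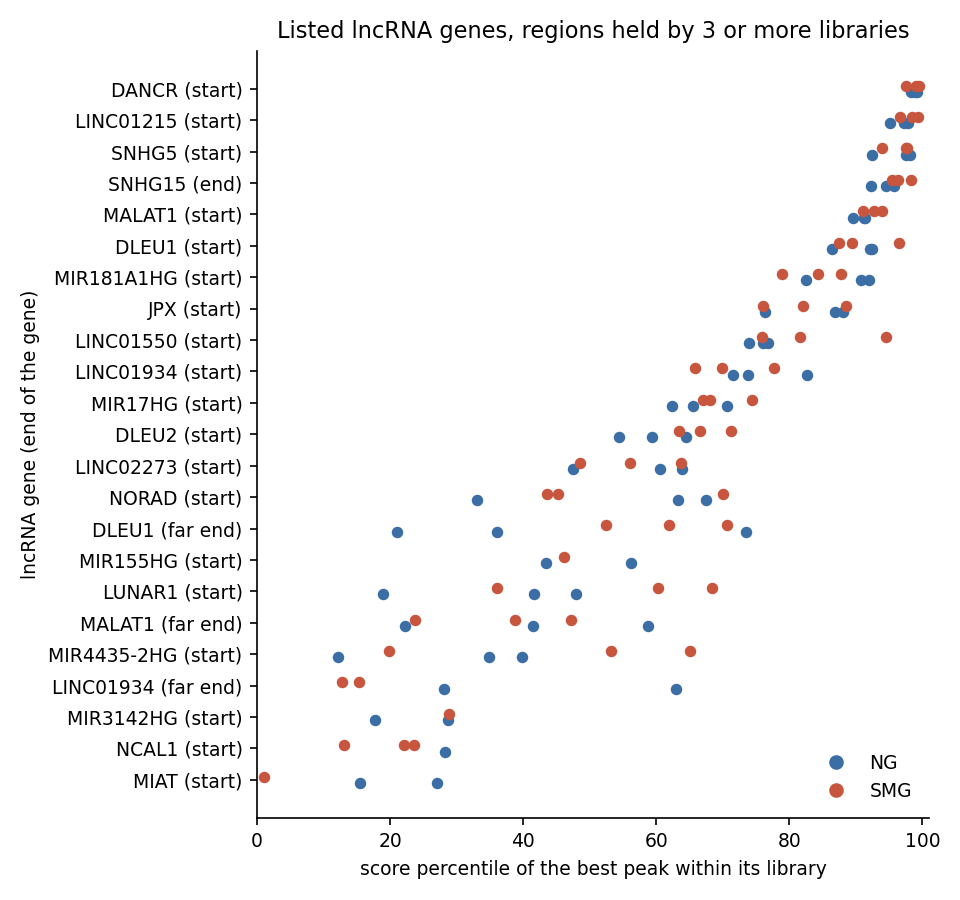
Score percentile within its library (horizontal axis) of each region at a gene of the T cell and leukaemia list or the abundant list that 3 or more libraries held (vertical axis, 23 regions with the end of the gene), 1 point per holding library, NG and SMG in different colours. DANCR, LINC01215, SNHG5 and SNHG15 lie above 92 in every library, while NORAD, LUNAR1, MIR4435-2HG and the far ends of MALAT1 and DLEU1 spread widely within both groups.

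Among widely expressed lncRNAs DANCR and the small nucleolar RNA hosts SNHG5 and SNHG15 stood high. DANCR is best known for holding back differentiation of progenitor cells, and SNHG genes carry small nucleolar RNAs in their introns. DANCR (chr4:52711872-52713070) had percentiles of 98.9, 98.2 and 99.2 in NG and 99.4, 99 and 97.5 in SMG, with pileups of 88, 122 and 120 and then 124, 136 and 92 reads. SNHG5 had 92.4, 97.5 and 98.1 in NG and 97.7, 97.5 and 93.9 in SMG. SNHG15 had 92.2, 95.7 and 94.5 in NG and 95.5, 98.3 and 96.4 in SMG. Of the 7 small nucleolar RNA hosts with a region, 6 had it held by all libraries. The exception was SNHG16, whose region rested on SMG 3 alone at percentile 7.44, 816.5 bp from the end. JPX, an activator of X inactivation, had 88.1, 86.9 and 76.3 in NG and 88.6, 82.1 and 76.1 in SMG. NORAD, a cytoplasmic RNA that binds PUMILIO proteins, had 63.2, 67.5 and 33.0 in NG and 45.3, 43.6 and 70.0 in SMG. NEAT1, the scaffold of paraspeckles, had 1 region by this rule, held by SMG 2 at percentile 1.23 beside the end of the gene at chr11:65445540. FTX, LINC-PINT and MIAT had regions held by 1, 1 and 3 libraries. SNHG17, ZFAS1, MEG3, CRNDE and FIRRE of this list had a stand-alone end and no region.

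MicroRNA hosts varied widely, and 13 of 29 host regions (44.8%) were held by all libraries, close to the 41.0% of all 1535 regions. MIRLET7A1HG, the host of a let-7 cluster, had a start region at a mean percentile of 94.2 and a neighbouring one at 51.9. MIR223HG, host of miR-223, best known from myeloid cells, had a region in all 6 libraries at a mean percentile of 74.8. MIR646HG had 3 regions, held by 1 to 3 libraries. Of the 1395 lncRNA genes with a region, 1264 had 1, 122 had 2 and 9 had 3, among them GASAL1, LINC02611, LOC105373239 and TTTY8B. The widest regions were at LOC105371910 on chromosome 17 (2088 bp), TTTY15 on the Y chromosome (1995 bp) and LOC124904992 (1963 bp).

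Between NG and SMG the regions at lncRNA ends did not differ in number, share, score or width beyond the spread between libraries. NG 1 to 3 held 855, 1016 and 970 of them and SMG 1 to 3 held 993, 992 and 950. The means were 947 ± 82.9 in NG and 978 ± 24.5 in SMG (SD, n = 3 each), a difference of 31.3 (exact permutation test, two-sided p = 0.8). With 3 libraries against 3 this test cannot go below 0.1. Without NG 1 the difference turned to −14.3 (exact permutation test, p = 0.7). The share of each library's peaks that lay in these regions, which takes out the total number of peaks, was 2.46 ± 0.0621% in NG and 2.53 ± 0.0695% in SMG (SD, n = 3 each; exact permutation test, p = 0.3). The median score percentile was 55.3 ± 0.978 in NG and 55.8 ± 0.312 in SMG (p = 0.6, same exact test), and a small difference in the other direction was found when the distance to the lncRNA end was limited to 500 bp (−0.517). Median peak width was 504 ± 33.3 bp in NG and 514.5 ± 26.8 bp in SMG (p = 0.7, same exact test), and the difference was −8.33 bp without NG 1 and −3.42 bp without SMG 2.

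**Figure D5:**
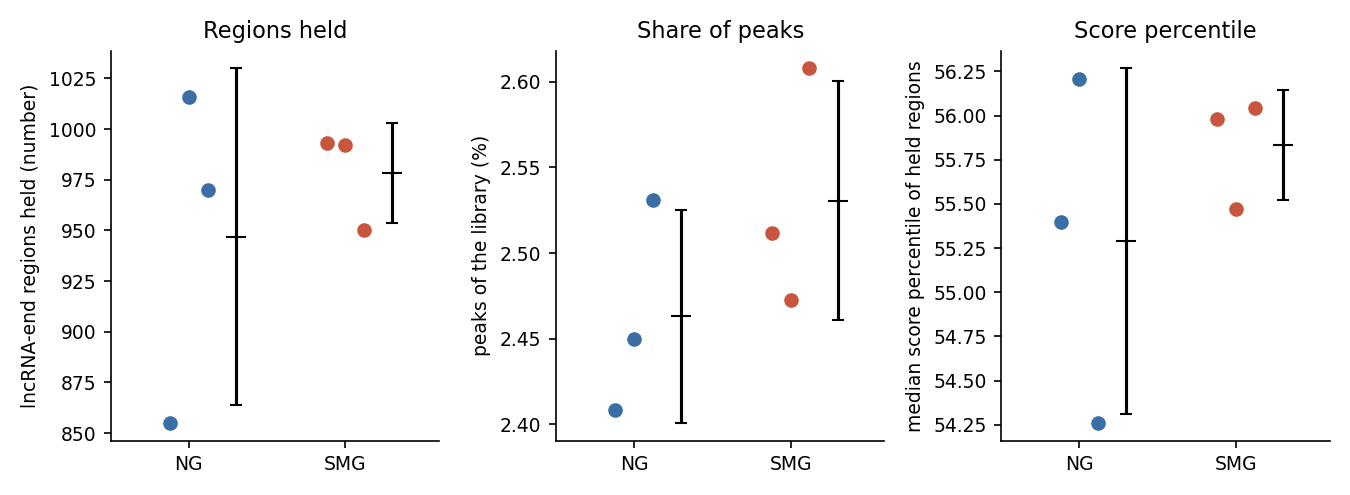
Number of lncRNA-end regions held (left), share of the library's peaks in them (middle, %) and median score percentile of the held regions (right), 1 point per library, with the mean and SD of each group beside it; the vertical axes do not start at 0. NG and SMG overlap in all 3 panels, and NG 1 with 855 regions is the lowest library at left.

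Regions found in all libraries of a group and none of the other were few. The SMG-only pattern was met by 4 regions (0.261%), against a background of 0.411% of all union regions, and the NG-only pattern by 2 (0.130%), against a background of 0.26%. Counts this small moved with the setting. With peaks of −log10 q of 5 or more the SMG-only count was 13 (1.22% against 0.501% of all regions), and with peaks that cover at least 50% of the region it was 11 (0.717% against 0.543%). With a 500 bp limit it was 1 (0.0975% against 0.411%), so the share lay below the background at some settings and above it at others. The NG-only count was 1 to 3 over the settings that kept 6 libraries. Its shares there were 0.0719% to 0.195%, against backgrounds of 0.177% to 0.303%. The SMG-only regions lay at the start of LOC730101, with percentiles of 44.4, 29.2 and 56.4 in SMG 1 to 3, at the far end of LOC105376205 (60.7, 53.5 and 11.1), at an end of SRD5A3-AS1 (44.5, 10.3 and 68.3) and at the far end of LOC124906123 (4.81, 22.4 and 13.7). The NG-only regions lay at the starts of LOC124903088 (26.9, 29.8 and 4.85 in NG 1 to 3) and of LINC02913 (12.9, 9.01 and 34.4). In LINC02913 the pileups were 8, 10 and 12 reads. The mean percentiles of LOC730101, LOC105376205 and SRD5A3-AS1 (43.3, 41.8 and 41.0) lay above the median of 23.9 for regions held by 3 libraries, and those of LOC124903088, LINC02913 and LOC124906123 (20.5, 18.8 and 13.6) below it. With 1 library left out fewer libraries had to agree, and the counts and the backgrounds grew. The SMG-only count was 5, 18 and 14 without NG 1, 2 and 3 and 14, 14 and 20 without SMG 1, 2 and 3, or 0.341%, 1.23%, 0.941%, 0.972%, 0.952% and 1.37% against backgrounds of 0.649%, 1.25%, 0.906%, 1.12%, 1.12% and 1.29%. The NG-only count was 22, 6 and 6, and then 4, 11 and 6. Without NG 1, 2 and 3 this was 1.5%, 0.410% and 0.403%, against backgrounds of 1.28%, 0.665% and 0.829%. Without SMG 1, 2 and 3 it was 0.278%, 0.748% and 0.410%, against 0.558%, 0.729% and 0.479%.

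Of the 630 regions held by all libraries, 48 (7.62%) had a higher percentile in every SMG library than in any NG library, against a background of 5.34% of all regions held by 6. The opposite pattern was met by 22 (3.49%), against a background of 5.06%. Protein-coding ends had 4.42% higher and 6.52% lower, and distal regions 5.00% higher and 4.35% lower. The median difference in mean percentile, SMG minus NG, was 0.580 points over the 630 regions and 0.0765 over all 24103 regions held by 6. Whether these shares differ from the background beyond chance was not tested. The largest differences among those higher in SMG were at LOC105379499 on chromosome 21, with percentiles of 23.4, 3.23 and 10.1 in NG and 46.0, 37.6 and 54.1 in SMG, and at LOC105374408, GPR155-DT, LOC105378372 and LOC105370342. GPR155-DT, a transcript named for its divergence from GPR155, had 17.1, 7.58 and 20.1 in NG and 43.9, 52.1 and 34.8 in SMG at its far end. Pileups there were 9, 12 and 12 reads in NG and 17, 20 and 17 in SMG. Among those lower in SMG the largest differences were at LOC124903969, CELF2-AS1, LOC124900852, LOC107985940 and LINC00336. CELF2-AS1 is named as antisense to CELF2, which encodes an RNA-binding splicing regulator. Its start (chr10:11344092-11345187) had 61.3, 62.6 and 73.2 in NG and 59.7, 34.6 and 47.7 in SMG, with pileups of 19, 28 and 30 reads and then 24, 21 and 21 reads. The pileups overlap there, while the percentiles do not. Such a separation of 3 against 3 libraries cannot reach p below 0.1 for a single region. Without 1 library in turn the counts were 69 (NG 1), 91 (NG 2), 85 (NG 3), 81 (SMG 1), 89 (SMG 2) and 97 (SMG 3) for higher in SMG, and 63, 40, 51, 51, 57 and 45 for lower. The backgrounds rose as well, so that the higher pattern took 10.1% to 14.9% of these regions against 8.33% to 12.7% of all regions, and the lower pattern 6.35% to 9.20% against 8.25% to 11.7%.

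The distance in score to protein-coding ends was smaller in each SMG library than in any NG library. The lncRNA-end regions lay 19.1, 19.4 and 20.5 percentile points below protein-coding ends in NG 1 to 3 and 17.6, 18.3 and 17.4 points below in SMG 1 to 3. The means were −19.7 ± 0.758 in NG and −17.8 ± 0.470 in SMG (SD, n = 3 each), a difference of 1.91 (exact permutation test, two-sided p = 0.1, the smallest it can give). The groups did not overlap, but this comparison was chosen after the values were seen. The difference was 0.391 with peaks of −log10 q of 5 or more (p = 0.8, same exact test), 0.313 with a 500 bp limit to the lncRNA end (p = 0.8) and 1.08 where peaks had to cover at least 50% of a region (p = 0.2, same exact test), and at these settings the groups overlapped. It was 2.49 with equal peak numbers, 1.99 with 10 kb to protein-coding ends and 3.29 at named genes (p = 0.1 each, same exact test), without overlap. With 1 library left out it was 1.58 to 2.42. The median percentile of protein-coding ends was 75 ± 0.583 in NG and 73.6 ± 0.163 in SMG (SD, n = 3 each), while that of lncRNA-end regions differed by 0.543 points. The differences of lncRNA-end regions to distal regions (−0.853, p = 0.4) and of start to far-end regions (0.920, p = 0.5) between the groups were within the spread, by the same exact permutation test.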

How the data were processed

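Peaks were called per library with MACS2; FastQC, BWA, Bowtie, SAMtools and hg38 are also listed, per the submitters' processing notes, with versions and settings not stated. Each deposited list gives, per peak, an integer score, the fold enrichment at the summit (a ratio) and −log10 of the p-value and of the q-value, as the authors' caller wrote them, and no read counts or depth. The largest q in the lists was 0.0496. Peak names of SMG 3 carry the word "normalized", which the sources used here do not explain.

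Peaks were merged, placed against RefSeq gene spans on GRCh38.p14 and ranked by −log10 q within each library, with pandas 2.3.3 and NumPy 2.4.6. Summit pileup and background were solved from the fold and the Poisson p-value (SciPy 1.17.1), which succeeded for 99.98% to 99.99% of peaks per library. Group differences used exact permutation over the 10 splits of 6 libraries, and differences within libraries exact sign flips, both two-sided. Merging, the choice of regions, group-only counts, the exact tests and the pileup solution were tested on simulated data. Orientation of gene ends, summit position, motif search and window alignment were not. Windows were aligned with Biopython 1.88.

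Named regions were the 12 highest held by 6, the highest 2 for each smaller number of libraries, group-only regions, the widest 3, genes with most regions and genes of the lists. Others, such as LOC105370399, the copy families, MIRLET7A1HG and MIR223HG, and the largest group differences were picked with their values in view. The members and lists were chosen with earlier results of these data known. Strict score, equal peak number, 50% cover, narrower or wider distances, named genes and leaving out libraries were tried as alternatives.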

Additional observations from a re-analysis of the deposited data

How the results depend on the processing

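Of 163 alternative values, 97 kept the direction and the side of the threshold, or a count within 1.5 times. For group differences the side of the 0.05 threshold was fixed, because the exact permutation test cannot go below 0.1. There the 97 records only that the sign was kept. The size of group differences could still change, as for members held (8.33 to 64) and the gap to protein-coding ends (0.313 to 3.29) with 6 libraries. The lncRNA-end regions scored below protein-coding ends (−18.5 to −16.7 points) and above distal regions (11.7 to 21.0) under all settings that kept 6 libraries. Starts exceeded far ends in openness by 3.44 to 6.03 percentage points at these settings. The values for named genes (3.44) and for 10 kb to protein-coding ends (5.39) still divide by all stand-alone ends. Their size is therefore not comparable with the main value. With 5 libraries the smallest p of the exact sign-flip test is 0.0625, so these calls were lost by construction; the differences ranged from −18.9 to −18.3, from 16.5 to 17.1 and from 6.20 to 6.36, and starts scored 13.6 to 14.4 points above far ends.

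Group differences changed more. The median percentile difference was −0.510 where peaks had to cover at least 50% of a region and −0.517 with a 500 bp limit. Leaving out 1 library, members held differed by −14.3 to 70.7 and width by −8.33 to 22.2 bp; the values below 0 came without NG 1 (members −14.3, width −8.33) and without SMG 2 (width −3.42). SMG-only regions numbered 13 with −log10 q of 5 or more, 11 with 50% cover, and 1 each with the 500 bp limit, with 10 kb to protein-coding ends and with named genes. NG-only regions numbered 1 with the stricter score, with equal peak numbers, with the 500 bp limit and with named genes. Without 1 library they numbered 5 to 20 and 4 to 22. Regions held by all libraries numbered 418 with 50% cover and 278 at named genes. Regions with every SMG percentile above every NG one numbered 20 at named genes (7.19% against 5.34% of all regions held by 6) and 69 to 97 without 1 library. Those below numbered 7 with the stricter score (1.42% against 3.32%), 13 with 50% cover (3.11% against 5.28%), 11 at named genes (3.96% against 5.06%) and 40 to 63 without 1 library. The causes were not tested.

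Replicate numbers did not pair the libraries: deviations of same-numbered libraries correlated at 4.6e-05, −0.0068 and −0.0158 over 24103 regions. With the replicate number as a block the differences stayed 31.3 members (exact p = 1), 0.0676% of peaks (p = 0.25), 0.543 percentile points (p = 0.75), 10.5 bp (p = 0.5) and 1.91 points to protein-coding ends (p = 0.25).

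Peak lists carry no depth beyond the recovered pileups. Absence of a peak near the calling limit, a median of 11 reads at regions held by 1 library, is not a measured absence of accessibility. The shallowest library, NG 1, was the missing library for 51.8% of the lncRNA-end regions missing in exactly 1 library. For all union regions missing in exactly 1 library the share was 42.6%. A link to depth was not tested.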
